A study of Mus musculus with 8 samples.

Results

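The expression of 9 chemokine genes and of the chemokine receptor gene Cxcr4 was examined in hippocampal RNA of the mouse strains BTBR and B6. The genes were Cxcl12, Cxcl14, Cxcl16, Cx3cl1, Ccl24, Ccl25, Ccl17, Ccl3, Ccl4 and Cxcr4, and every non-control probe that carries one of these 10 names on the array was taken, whatever its values. This gave 16 of 41174 non-control probes, with 2 probes for each of 6 genes and 1 probe for each of the other 4. Total RNA of the whole hippocampus came from 4 B6 mice (C57BL/6J, wild type) and 4 BTBR mice (BTBR T+ Itpr3tf/J, an inbred strain used as a mouse model of autism), all male, 5 months old and without drug treatment. Each mouse had an Agilent one-color array of its own. The strain background field of the BTBR samples reads C57BL/6J, while their title, source and genotype name BTBR. The strains differ across the whole genome, so that strains and not single alleles are compared.

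Chemokines are small secreted proteins that guide the movement of cells through G protein-coupled receptors. In the brain they come from neurons, glia, blood vessels and macrophages, and besides leukocytes they act on neurons and microglia. Cxcl12 and its receptor Cxcr4 direct the migration of granule cell precursors and interneurons during development, and in the adult hippocampus they take part in neurogenesis. Cx3cl1 (fractalkine) is a membrane-bound chemokine of neurons whose receptor, Cx3cr1, marks microglia. Ccl17, Ccl24 and Ccl25 are known mainly from T cells and eosinophils, and hippocampal neurons have also been described as a source of Ccl17.

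Expression is given as log2 intensity after background subtraction, an offset of 50 and quantile normalization, and a difference is BTBR minus B6. A probe counts as well above background where the scanner software says so. It was tested where this held on at least 75% of the arrays of a strain, and 27982 probes passed. Per array, 56.8% (B6 replicate 1) to 71.9% of all probes reached this level in B6 and 61.9% to 71.5% in BTBR, and no probe was saturated. All 10 genes of a list of hippocampal neuron markers were measured on these arrays. The arrays lay on 2 slides, the first with replicates 1 and 2 of both strains and the second with replicates 3 and 4. Of the 16 probes, 15 from 9 genes passed, and 9 of them were well above background on all 8 arrays. The probe of Ccl3 did not pass.

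Ccl17 and Ccl24 were up-regulated in the BTBR hippocampus, with 1 and 2 probes, and no probe of the 10 genes was called lower. Cxcl12 was called higher with 1 of its 2 probes, by limma and not by the rank product, and the other probe differed by -0.36 and was not called. In limma, called at a Benjamini-Hochberg adjusted p under 0.05 over all probes, 4 of the 15 probes were higher in BTBR and 11 were not called. Among all probes tested, limma called 7.61% in either direction and 3.31% higher in BTBR. The rank product, the test of the study, is called at a percentage of false positives (pfp) of 0.05 or less. It called 2 of the 15 probes, those of Ccl17 and 1 of Ccl24, both higher, against 3.94% of all probes in either direction and 1.64% higher. The values of the strains did not overlap for 6 of the 15 probes, of which 5 were higher and 1 lower in BTBR. Over all probes this held for 14.2% in either direction and for 6.91% with BTBR higher. The median difference of the 15 probes was 0.05, with 9 differences above 0 and 6 below. The 11 probes that were not called differed by at most 0.36 in size, a limit that depends on the processing: with the processed signal of the scanner software the uncalled Cxcr4 probe A_52_P585124 stood at 0.80 and the Cxcl12 probe A_52_P685021 at -0.52, and the latter was at -0.69 within slide 1. In bulk tissue, more or fewer cells of a type and more or less RNA per cell cannot be told apart. RNA was measured, and protein was not analysed here.

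**Figure D1:**
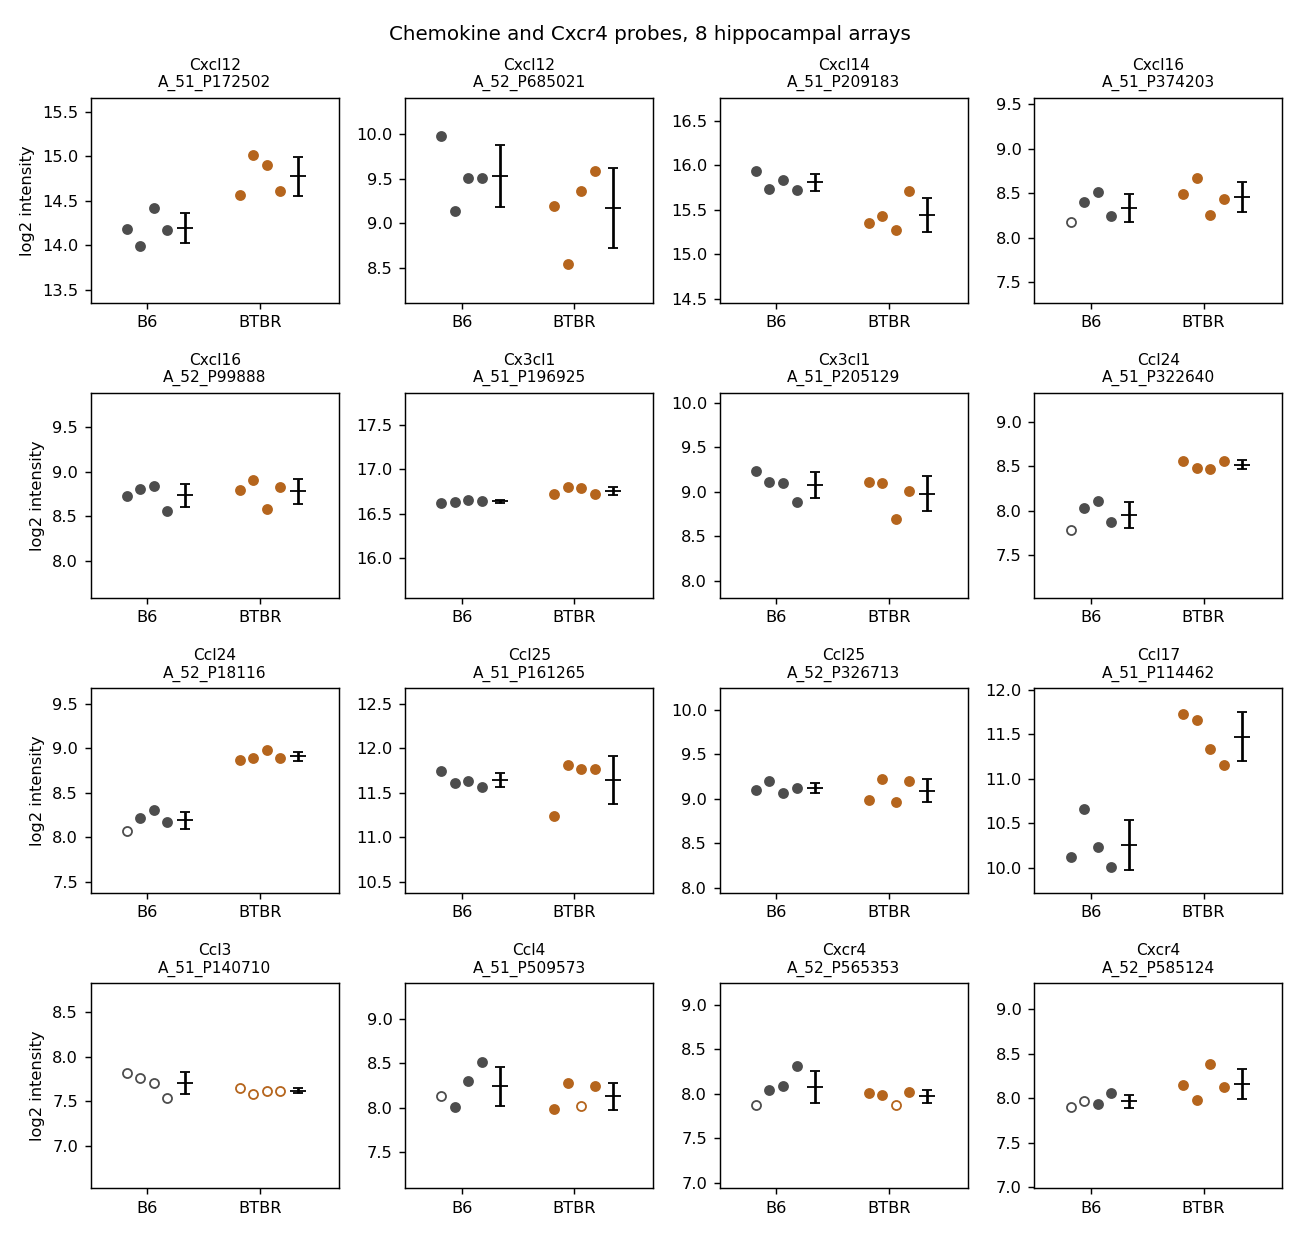
Normalized log2 intensity of the 16 probes on the 8 arrays, with replicates 1 to 4 from left to right within each strain. Filled circles are well above background and open circles are not, bars at the right of each strain show the mean ± SD over 4 mice, and every panel spans the same log2 range. The BTBR values of Ccl17, of both Ccl24 probes and of the Cxcl12 probe A_51_P172502 lie above all B6 values.

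Ccl17, a ligand of Ccr4 that attracts T helper and regulatory T cells, had the largest difference among the 15 probes with this processing. Its probe A_51_P114462 (NM_011332, mm9 chr8:97335770-97335829, plus strand) read 10.13, 10.66, 10.23 and 10.01 in B6 replicates 1 to 4 and 11.74, 11.67, 11.34 and 11.16 in BTBR replicates 1 to 4. The lowest BTBR mouse lay 0.50 above the highest B6 mouse, and all 8 arrays were well above background. The B6 mean was 10.26 ± 0.28 and the BTBR mean 11.47 ± 0.27 (SD, n = 4 each). The difference was 1.22 (SE 0.17, 95% interval from 0.83 to 1.603), a 2.33-fold higher signal (limma, adjusted p = 0.0021). The rank product gave a pfp of 0.00056. The exact two-sided permutation p was 0.0286, the smallest that 4 arrays against 4 allow. The difference was 1.31 within slide 1 and 1.13 within slide 2. Of all probes tested, 1.05% had a larger difference in size. With the processed signal of the scanner software, the Ccl24 probes A_51_P322640 (1.74) and A_52_P18116 (1.63) differed by more than Ccl17. No alternative put Ccl17 above 1.38. Ccr4, its receptor, has 2 probes, and neither was well above background on any array. The same holds for Ccl22, the other ligand of Ccr4.

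The sequence before the start of Ccl17 is shown because this gene moved most with this processing. That of Cxcl12 is shown because only 1 of its probes was called. The reference promoter table (RefSeq, GRCm38.p6) holds 8 entries for 7 of the 10 genes, and the 250 bases before each start were searched on both strands for the STAT palindromes TTCNNNGAA and TTCNNNNGAA, the TATA box letters TATAAA and the GC box letters CCGCCC. Matches are in capitals, and letters that overlapping matches share are counted in each. The Ccl17 sequence, chr8:94810203-94810452 on the plus strand of GRCm38.p6, holds 1 match to TTCNNNNGAA, which begins 154 bases before the start, and 1 match to TTCNNNGAA, which begins 99 bases before it:
Ccl17: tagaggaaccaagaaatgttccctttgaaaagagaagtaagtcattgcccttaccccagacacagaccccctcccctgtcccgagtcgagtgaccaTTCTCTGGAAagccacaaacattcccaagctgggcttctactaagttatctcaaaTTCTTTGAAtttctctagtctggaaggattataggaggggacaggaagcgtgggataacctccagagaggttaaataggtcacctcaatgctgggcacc
The Cxcl12 sequence, chr6:117168285-117168534 on the plus strand of GRCm38.p6, holds 5 matches to CCGCCC or its reverse complement and none to the other 3 motifs:
Cxcl12: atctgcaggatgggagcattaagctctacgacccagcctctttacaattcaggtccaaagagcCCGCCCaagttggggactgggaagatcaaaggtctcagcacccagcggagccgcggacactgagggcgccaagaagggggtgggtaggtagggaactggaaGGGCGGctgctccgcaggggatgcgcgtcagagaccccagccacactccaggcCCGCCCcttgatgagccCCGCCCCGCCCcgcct
Of all 32851 promoter windows of this length, 7.02% hold TTCNNNGAA, 5.85% hold TTCNNNNGAA, 12.4% hold TATAAA and 32.7% hold CCGCCC. Among the 8 entries, TTCNNNGAA is found in 2, TTCNNNNGAA in 1, TATAAA in 3 and CCGCCC in 3. These are matches of letters in the reference sequence, and BTBR sequence was not analysed here.

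Ccl17 neighbors Cx3cl1 on chromosome 8, with 27 kb between the genes in GRCm38.p6. Within 500 kb of the Ccl17 probe, 32 other probes of 21 genes were tested, with a median difference of 0.08. Limma called 3 of them, against 7.61% of all probes in either direction. The probe of 1700121C10Rik, 17.6 kb before the Ccl17 probe, was higher by 0.68 (SE 0.13, adjusted p = 0.0138). The probe of Coq9, which encodes a protein of ubiquinone synthesis and lies 42.3 kb after it, was higher by 0.37 (SE 0.08, adjusted p = 0.0223). A probe of Gpr56, an adhesion receptor gene 202.2 kb after it, fell by 2.97 (SE 0.18, adjusted p = 1.1e-05). The calls around Ccl17 thus went in both directions.

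**Figure D2:**
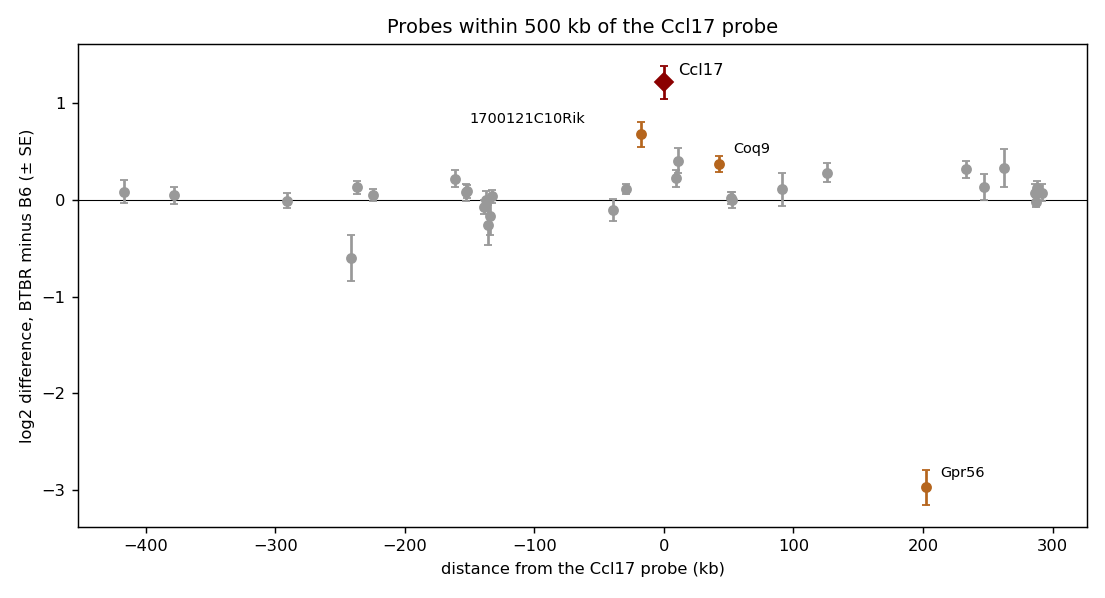
Difference in log2 intensity (BTBR minus B6, bars ± SE from limma) against the distance in kb from the Ccl17 probe, for the tested probes within 500 kb. The diamond is Ccl17, brown circles are probes called by limma and gray circles are not called, and 3 neighbors are called, 1 of them, Gpr56, lower.

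Ccl24 (eotaxin-2), a ligand of Ccr3 that attracts eosinophils, was higher in BTBR by both of its probes. A_51_P322640 (NM_019577, mm9 chr5:136046667-136046726, minus strand) reads the end of the coding sequence, and it is shown because 2 probes of different sequence within the same transcript rose:
Ccl24 probe A_51_P322640: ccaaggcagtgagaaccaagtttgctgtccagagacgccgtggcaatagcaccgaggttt
This probe read 7.78, 8.04, 8.11 and 7.88 in B6 and 8.57, 8.48, 8.47 and 8.56 in BTBR. The second probe, A_52_P18116 (mm9 chr5:136046485-136046544), read 8.07, 8.21, 8.31 and 8.18 in B6 and 8.87, 8.89, 8.98 and 8.90 in BTBR. For both probes all BTBR mice lay above all B6 mice, and all arrays except B6 replicate 1 were well above background.

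The difference of A_52_P18116 was 0.72 (SE 0.07, 95% interval from 0.56 to 0.87), 1.64-fold (limma, adjusted p = 2.0e-04), with a rank product pfp of 0.0169. A_51_P322640 differed by 0.57 (SE 0.08, 95% interval from 0.38 to 0.75), 1.48-fold (limma, adjusted p = 0.0025), with a pfp of 0.060, which is not a call. The exact permutation p was 0.0286 for each, the smallest possible. Within slides 1 and 2 the differences were 0.74 and 0.70 for A_52_P18116 and 0.61 and 0.52 for A_51_P322640. The signal lay close to background, and the size of the difference depended on the processing. From the processed signal of the scanner software, which differs in background correction and scaling and has no offset, the differences were 1.63 for A_52_P18116 and 1.74 for A_51_P322640, and in the deposited matrix they were 0.49 and 0.35, all still called by limma. In the deposited matrix the rank product called neither probe (pfp 0.0636 for A_52_P18116 and 0.223 for A_51_P322640). Which of these steps moved the size was not tested. Within 500 kb of the probe A_52_P18116, 39 other probes of 23 genes were tested. Limma called 2, both of Upk3bl, which lay 490.9 and 493.6 kb away, against 7.61% of all probes.

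Ccl24 is a gene of tissue macrophages at the borders of the brain, and the markers of these cells were compared beside it. None of the 8 tested probes of 6 border macrophage genes was called. Their median difference was 0.01, and the summed linear signal ranged from 5098 to 7181 in B6 and from 5603 to 6927 in BTBR. Cd163 was well above background on no array, and Mrc1 on 2 B6 and 3 BTBR arrays, so that it passed the filter through BTBR alone. Cbr2 reached that level on all 8 arrays and Lyve1, with 1 of its 2 probes, on 3 B6 and 4 BTBR arrays. Of 3 tested T cell probes, Cd3d was higher by 0.38 in limma, and it passed the filter through the BTBR arrays alone, with 2 B6 and 4 BTBR arrays well above background. Ccr3, the receptor of Ccl24, had 1 probe that was well above background on no array and another that differed by -0.09 (limma, adjusted p = 0.79), with 1 B6 and 3 BTBR arrays well above background, so that it too was tested through BTBR alone.

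Cxcl12 gave different results with its 2 probes. A_51_P172502 (mm9 chr6:117131227-117131286, plus strand) is annotated to the transcripts NM_001012477 and NM_013655. It read 14.18, 13.99, 14.42 and 14.17 in B6 and 14.57, 15.01, 14.90 and 14.61 in BTBR, so that the lowest BTBR mouse lay 0.15 above the highest B6 mouse. The difference was 0.58 (SE 0.13, 95% interval from 0.30 to 0.87), 1.5-fold higher in BTBR (limma, adjusted p = 0.0227, exact permutation p = 0.0286). The rank product gave a pfp of 0.0626 and no call. It called this probe in 2 of 16 alternatives, the deposited matrix (pfp 0.034) and no filter on dim probes (pfp 0.045). The limma call was lost without B6 replicate 1, 2 or 4 and without BTBR replicate 2 or 3 (differences from 0.50 to 0.66 over all arrays left out in turn, adjusted p up to 0.0694). It was also lost within slide 1 (0.70) and within slide 2 (0.46).

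The other Cxcl12 probe, A_52_P685021 (mm9 chr6:117124474-117124533), is annotated to NM_021704, a transcript that ends at an earlier exon. It read 9.98, 9.14, 9.51 and 9.51 in B6 and 9.19, 8.54, 9.36 and 9.58 in BTBR, and the strains overlapped. Its difference was -0.36 (SE 0.24, 95% interval from -0.91 to 0.18, limma, adjusted p = 0.49). The difference between the probes within an array averaged 4.66 ± 0.32 for B6 and 5.61 ± 0.62 for BTBR (SD, n = 4 each). It was between 4.21 and 4.91 in B6 and between 5.03 and 6.48 in BTBR. The change of 0.95 in this ratio had an exact permutation p of 0.0286, the smallest possible, and 0.0857 after Benjamini-Hochberg adjustment over the 6 genes with 2 probes. For the 2 Ccl24 probes, both higher in BTBR, the ratio changed by -0.15, with the same exact permutation p and adjusted p. The median over both probes put Cxcl12 at a difference of 0.11 (limma, adjusted p = 0.71). None of 12 endothelial probes was called, and of 22 hippocampal neuron probes 1 was called lower, against 7.61% of all probes in either direction.

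**Figure D3:**
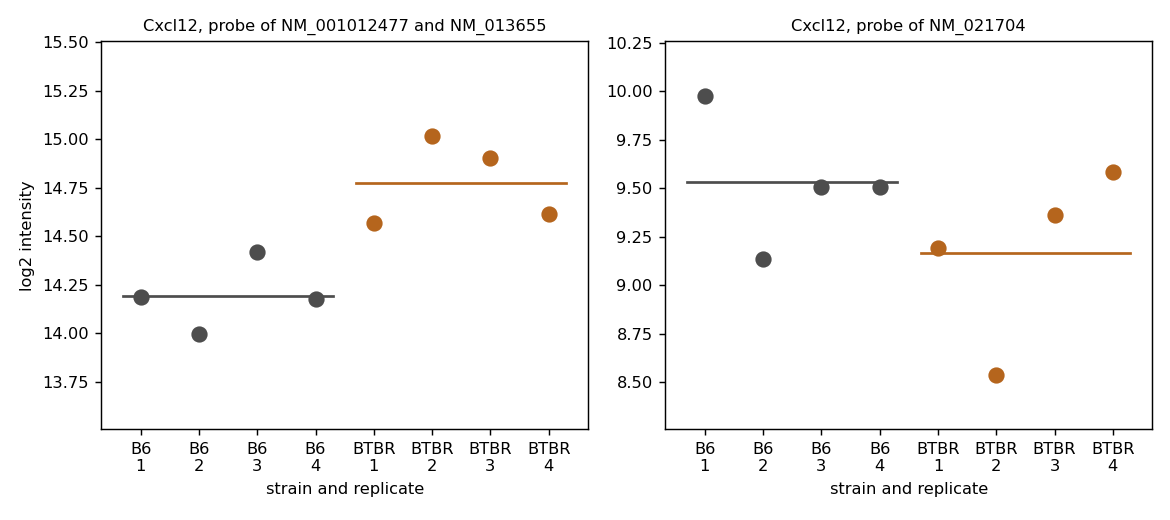
Normalized log2 intensity of the 2 Cxcl12 probes on each array, with lines at the strain means. Both panels span the same log2 range, each at its own level. The probe of NM_001012477 and NM_013655 is higher in all BTBR mice, whereas the probe of NM_021704 overlaps between the strains.

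Cxcr4, the receptor of Cxcl12, was measured close to background. A_52_P565353 (NM_009911, mm9 chr1:130485659-130485718, minus strand) lies in the coding sequence and is shown as the counterpart of the ligand probes:
Cxcr4 probe A_52_P565353: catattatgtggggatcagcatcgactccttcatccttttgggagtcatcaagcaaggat
It read 7.88, 8.04, 8.08 and 8.31 in B6 and 8.01, 7.99, 7.87 and 8.02 in BTBR, with 3 arrays of each strain well above background. The difference was -0.11 (SE 0.09, 95% interval from -0.32 to 0.10, limma, adjusted p = 0.62). The second probe, A_52_P585124 (mm9 chr1:130485079-130485138), read 7.90, 7.97, 7.93 and 8.06 in B6, with 2 arrays well above background, and 8.15, 7.98, 8.39 and 8.12 in BTBR, with 4. It passed the filter through the BTBR arrays alone. The difference was 0.19 (SE 0.09, 95% interval from -0.01 to 0.40, limma, adjusted p = 0.30). The probes thus differed in sign and neither was called. With the processed signal the differences were -0.49 for A_52_P565353 and 0.80 for A_52_P585124, and neither was called (limma, adjusted p = 0.28 and 0.33). Ackr3, the scavenger receptor of Cxcl12, averaged 11.08 ± 0.12 for B6 and 11.07 ± 0.44 for BTBR (SD, n = 4 each, limma, adjusted p = 0.996). Dpp4, a peptidase that cuts the start of Cxcl12, differed by 0.09 (limma, adjusted p = 0.84) with the 1 of its 3 probes that was tested.

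Cxcl14, a chemokine expressed by interneurons, was the only gene of the 10 with a probe that was lower in all BTBR mice than in all B6 mice. Its probe A_51_P209183 (NM_019568, mm9 chr13:56390078-56390137, minus strand) read 15.93, 15.73, 15.83 and 15.72 in B6 and 15.35, 15.43, 15.27 and 15.71 in BTBR. BTBR replicate 4 lay only 0.01 below the lowest B6 mouse. The difference was -0.36 (SE 0.10, 95% interval from -0.59 to -0.13) and was not called (limma, adjusted p = 0.0705, exact permutation p = 0.0286). Without BTBR replicate 4 it was -0.45 and called (adjusted p = 0.0136). None of 13 interneuron marker probes was called.

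Cx3cl1 and Cxcl16, the chemokines that are made as membrane proteins and cut off by Adam10 and Adam17, were not called. The Cx3cl1 probe A_51_P196925 (NM_009142, mm9 chr8:97306185-97306244) read 16.62, 16.63, 16.66 and 16.65 in B6 and 16.72, 16.80, 16.79 and 16.72 in BTBR. The strains did not overlap, but the difference was 0.12 (SE 0.05, 95% interval from 0.00 to 0.24, limma, adjusted p = 0.29). A second probe, A_51_P205129 (AB030188, mm9 chr8:97296742-97296801), ranged from 8.88 to 9.23 in B6 and from 8.69 to 9.11 in BTBR (difference -0.10, SE 0.11, limma, adjusted p = 0.71). Cxcl16, the ligand of Cxcr6, differed by 0.13 (SE 0.11, 95% interval from -0.12 to 0.37) with A_51_P374203, which spans an exon junction, and by 0.05 (SE 0.09, 95% interval from -0.16 to 0.26) with A_52_P99888 (limma, adjusted p = 0.61 and 0.85). With the processed signal these were 0.34 and 0.18, not called. Cxcr6 differed by 0.08 (limma, adjusted p = 0.62).

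The proteases were compared beside these ligands. Both Adam17 probes rose in BTBR, by 0.46 (SE 0.09, adjusted p = 0.0131) and 0.38 (SE 0.07, adjusted p = 0.0116) in limma, while the rank product called neither (pfp 0.17 and 0.29). Adam10 differed by 0.32 (SE 0.09) with no overlap and was not called (adjusted p = 0.0701). Cx3cr1, the receptor of Cx3cl1, again depended on the probe. A_52_P99810 averaged 12.07 ± 0.10 for B6 and 13.47 ± 0.14 for BTBR (SD, n = 4 each), a difference of 1.41 (limma, adjusted p = 1.1e-05), while A_51_P350853 differed by -0.10 (SE 0.09, adjusted p = 0.67). Of 17 tested microglia probes, this Cx3cr1 probe was the 1 called higher by limma, and 4 were called lower. Limma called 7.61% of all probes in either direction.

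Ccl25, the ligand of Ccr9 that is known from thymus and gut, had nearly equal means. A_51_P161265 (NM_009138, mm9 chr8:4359916-4359975) read 11.75, 11.61, 11.63 and 11.56 in B6 and 11.24, 11.81, 11.76 and 11.76 in BTBR, with BTBR replicate 1 apart from the other 3. The difference was 0.01 (SE 0.13, 95% interval from -0.28 to 0.29, limma, adjusted p = 0.99). A_52_P326713, which spans an exon junction, ranged from 9.06 to 9.19 in B6 and from 8.97 to 9.22 in BTBR and differed by -0.03 (SE 0.08, 95% interval from -0.20 to 0.15, limma, adjusted p = 0.90). Ccr9 differed by 0.20 (limma, adjusted p = 0.29).

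Ccl3 and Ccl4, the macrophage inflammatory proteins, were at or near background. Ccl3 (A_51_P140710, NM_011337, mm9 chr11:83461358-83461417) read between 7.54 and 7.81 in B6 and between 7.58 and 7.65 in BTBR, on no array well above background, so that no difference could be measured. Ccl4 (A_51_P509573, NM_013652, mm9 chr11:83478052-83478111) read 8.14, 8.01, 8.30 and 8.52 in B6 and 7.98, 8.28, 8.02 and 8.24 in BTBR, with 3 arrays of each strain well above background. Its difference was -0.11 (SE 0.12, 95% interval from -0.39 to 0.16, limma, adjusted p = 0.71), and -0.26 with the processed signal, not called. Ccr1, a receptor of Ccl3, was well above background on no array.

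**Figure D4:**
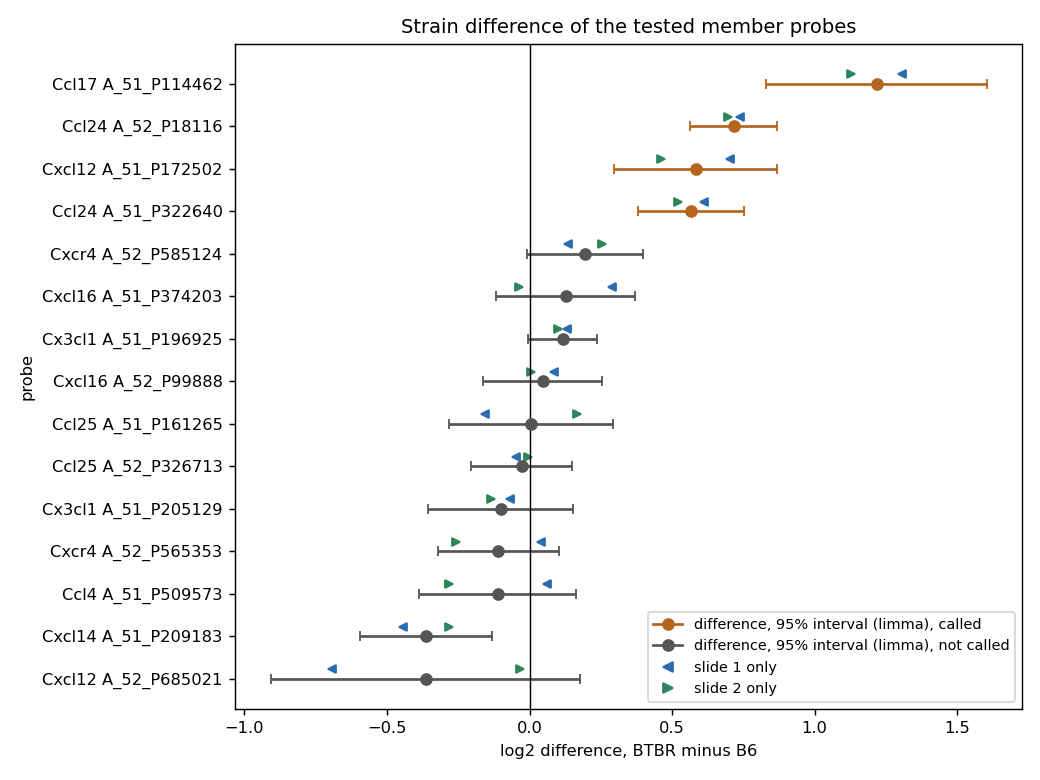
Difference in log2 intensity (BTBR minus B6) of the 15 tested probes, in order of size, with the 95% interval of limma. Brown marks the 4 probes called at an adjusted p under 0.05, and triangles give the difference within each slide. The largest difference with this processing is that of Ccl17 at 1.22, and the 11 gray probes are not called.

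Whether a strain difference changed from slide to slide was tested with the strain by slide term of limma, which called 0 of the 15 probes (smallest adjusted p = 0.55), and none of the 15 had an unadjusted p under 0.05. Among all probes tested 0 were called, and 2780 had an unadjusted p below 0.05.

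Among other chemokine ligands, 15 probes of 13 genes were tested, and limma called 1 higher and 2 lower, against 7.61% called in either direction over all probes. Their median difference was -0.10, against 0.01 over all probes. Ccl8, a monocyte attractant, was higher by 0.97 (SE 0.15, limma, adjusted p = 0.0039). Ccl21a, a ligand of Ccr7, fell by 4.92 (SE 0.13, limma, adjusted p = 8.7e-08), from 13.17 in B6 to 8.25 in BTBR, and near-identical Ccl21 copies may share this probe. Cxcl5, a neutrophil attractant, fell by 0.74 (SE 0.15, limma, adjusted p = 0.0148), with 4 B6 and 2 BTBR arrays well above background, so that it was tested through B6 alone, the strain where it is higher. Another 10 ligand genes, among them Ccl11, Cxcl1 and Cxcl9, were well above background on no array.

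Among receptors other than Cxcr4, 15 probes of 12 genes were tested, with a median difference of 0.11. Limma called 2 of these probes, both higher, against 7.61% of all probes in either direction, and the rank product called only that of Cx3cr1. Beside Cx3cr1 this was Ccrl2, an atypical receptor that binds chemerin, at 0.30 (SE 0.07, adjusted p = 0.0230), whose other probe stood at 0.22 with no overlap and no call (adjusted p = 0.12). Among processing and signaling partners, 49 probes of 27 genes were tested, with a median difference of 0.07. The rank product called none of the 49. Limma called 4 higher and none lower, against 7.61% of all probes called in either direction. Beside both Adam17 probes these were Pik3cg, the kinase subunit that G protein beta and gamma subunits activate, at 0.46 (SE 0.07, adjusted p = 0.0054), and 1 of 2 probes of Arrb1 (beta-arrestin 1) at 0.34 (SE 0.06, adjusted p = 0.0072). The other Arrb1 probe differed by -0.02 (limma, adjusted p = 0.93).

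**Figure D5:**
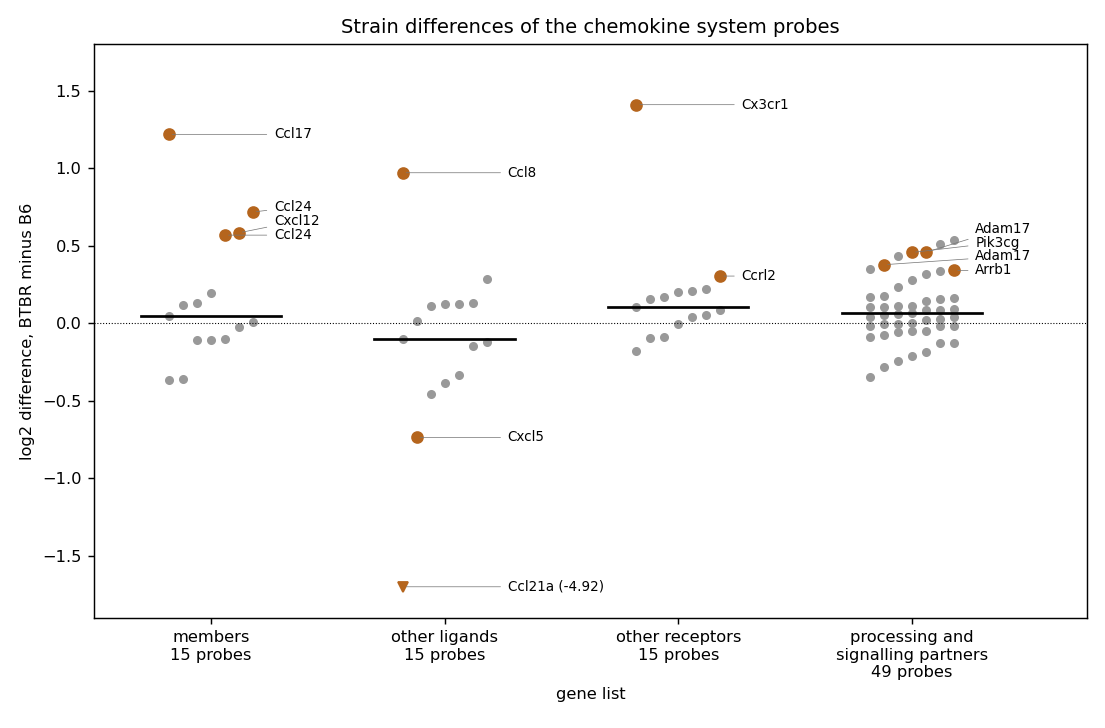
Difference in log2 intensity (BTBR minus B6) of each tested probe of the 10 genes (members) and of 3 lists of the chemokine system, with a line at the median of each list. Brown points are called by limma and named, gray points are not called, and the triangle at the lower edge marks Ccl21a, which lies off the scale at -4.92.

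Of 17 astrocyte probes limma called 3 lower, all of Gfap, the intermediate filament of astrocytes, which fell by 1.30 (adjusted p = 0.0014), 0.57 (adjusted p = 0.0060) and 0.49 (adjusted p = 0.0355). Over all probes, limma called 7.61% in either direction. The median of the astrocyte list was -0.24, with 13 of 17 probes below 0. Limma called none of 15 oligodendrocyte, 9 meningeal fibroblast, 9 choroid plexus and 3 blood probes, and the medians of the last 3 lists were 0.26, 0.33 and 0.20. The rank product called both probes of the meningeal transporter gene Slc6a13 higher, at 1.02 (pfp 0.0054) and 1.05 (pfp 0.0042), and 1 of 3 probes of the myelin gene Mobp, at 0.72 (pfp 0.047). All 9 choroid plexus differences, of 7 genes, lay above 0, with limma adjusted p from 0.59 to 0.92. The summed linear signal of this list overlapped between the strains, from 16565 to 39676 in B6 and from 17199 to 66784 in BTBR. The part of these genes in the differences above was not tested.

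The genes whose values followed the called probes from mouse to mouse were looked up among 205 probes of the lists, after the mean of each strain was removed. The 8 points share their arrays, and the correlations are descriptions. Ccl17 varied most like Lamp5, an interneuron gene (r = 0.94, rho = 0.90), Slco1a4, an endothelial transporter (r = 0.91, rho = 0.88), and Aldh1l1, an astrocyte enzyme (r = 0.90, rho = 0.79). Without the 2 arrays where Ccl17 lay farthest from its strain mean, these r were 0.93, 0.92 and 0.90. Cxcl12 (A_51_P172502) varied most like Slc1a2, the astrocyte glutamate transporter (r = 0.96, rho = 0.93, and 0.95 without the 2 farthest arrays), followed by Stat3 (r = 0.91, rho = 0.90, and 0.82) and Flt1 (r = 0.89, rho = 0.90, and 0.75).

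The probes of Ccl24 had different partners. A_51_P322640 varied most like Cbr2 (r = 0.95, rho = 0.93, and 0.97 without the 2 farthest arrays) and Pf4 (r = 0.92, rho = 0.93, and 0.88), both genes of border macrophages, and then Dcn of fibroblasts (r = 0.89, rho = 0.83, and 0.64). A_52_P18116 varied most like Ccrl2 (r = 0.86, rho = 0.83, and 0.77), Cd3d (r = 0.84, rho = 0.69, and 0.46) and Xcr1 (r = 0.78, rho = 0.43, and -0.14). The last 2 rest on the arrays that were left out.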

How the data were processed

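Hippocampal RNA of 4 BTBR and 4 B6 mice was labeled with Cy3 and hybridized to Agilent mouse arrays, 1 mouse per array, and arrays were grouped by their labels. The authors deposited intensity values that Feature Extraction 10.7.3.1 had read, per the file headers, not scaled between arrays, and a matrix of log2 values that the authors had background subtracted and quantile normalized. Positions are those of mm9, as the headers name it.

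The median local background was taken off the mean intensity with a floor of 0.5 and an offset of 50, and log2 values were then quantile normalized over the arrays. Replicate spots were summarized by their median. Dim probes, 154 probes flagged as outliers and the controls were left out. Limma 3.58.1 (R 4.3.3) fitted strain alone, with Benjamini-Hochberg adjustment over 27982 probes. The rank product used 100 permutations of the probes within arrays. Both tests were run on simulated data first. Single probes were compared with exact two-sided permutation tests (SciPy 1.17.1). The number of arrays limits the precision.

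The genes named were the 10 genes, their receptors and proteases, called probes of 3 chemokine lists and of the neighborhood, and the 3 most alike genes of each called probe. Ccl22, Ccl11, Cxcl1, Cxcl9, Cd163, Mrc1, Lyve1, Gfap, Slc6a13 and Mobp were named outside this rule, after their values were seen. Some members of the lists are not named here. Members and lists, and the 11 cell type marker lists, were chosen with earlier results of these data known. Replicate numbers of the labels gave correlations of -0.14, 0.51, -0.10 and 0.39 between same-numbered arrays. The highest with a differently numbered array was 0.34, 0.37, 0.16 and 0.24, below the same-numbered value for replicates 2 and 4. This does not settle whether the numbers pair mice, and the samples were not treated as paired. An offset makes fold changes of dim probes smaller, and it was not varied on its own.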

Additional observations from a re-analysis of the deposited data

Results flagged for a closer look

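Among 32 groups of 4 arrays (16 probes in both strains), 1 held an array far from the other 3. In BTBR, the Ccl25 probe A_51_P161265 read 11.24 in replicate 1 and between 11.76 and 11.81 in the others, a gap of 0.916 of the range of the group, beyond the 95% critical value of Dixon's test. Chance alone gives about 1 in 20 such groups. Without this array the Ccl25 difference was 0.14 and was not called.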

How the results depend on the processing

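Ccl17 was called by limma in all 21 alternatives, with differences from 1.13 to 1.38, and by the rank product in all 16. For Ccl24, A_52_P18116 was called in 20 of 20 by limma (0.49 to 1.63) and in 12 of 15 by the rank product (not with the deposited matrix, nor without BTBR replicate 3 or 4), and A_51_P322640 in 19 of 20 (0.35 to 1.74) and in 4 of 15. The limma call of A_51_P322640 was lost within slide 2 (0.52, adjusted p = 0.0779). Cxcl12 A_51_P172502 was called in 11 of 21 by limma and in 2 of 16 by the rank product. The limma call was lost with the processed signal (0.56) and the median of each gene's probes (0.11). It was also lost within slide 1 (0.70) and slide 2 (0.46), and with some arrays left out (0.50 to 0.66 over all 8). With the replicate number of the labels as a replicate block, the difference of this Cxcl12 probe was 0.58 and not called (limma, adjusted p = 0.0517). The block changed no other call of the 15 probes. Whether the numbers pair the mice was not settled.

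With the median over probes, which averages the probes of a gene, the difference was 0.11 for Cxcl12 and 0.0078 for Cx3cl1. For Ccl25 it was -0.011 and for Cxcr4 0.043. These values belong to the gene. Their sign differed from that of the probes Cxcl12 A_52_P685021, Cx3cl1 A_51_P205129, Ccl25 A_51_P161265 and Cxcr4 A_52_P565353. The other probe of each gene differed in the other direction. Uncalled differences of single probes turned sign within slide 1 for Ccl25 A_51_P161265 (-0.16), Ccl4 (0.060) and Cxcr4 A_52_P565353 (0.039). Within slide 2 that of Cxcl16 A_51_P374203 did (-0.037). Ccl25 A_51_P161265 was also -0.012 with the processed signal and -0.039 with median centring. With an array left out, it ranged from -0.050 to 0.14, Ccl25 A_52_P326713 from -0.069 to 0.015, and Cxcl16 A_52_P99888 from -0.012 to 0.11. The causes were not tested.

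With the median of each gene's probes the rank product called 730 gene names against 1103 probes, where fewer features are counted. Limma tested 9 of the 15 probes, without both of Ccl24, when only probes well above background on all 8 arrays were kept. It called 2 of these 9. With the median over probes it called 2 of the 9 genes, Ccl17 and Ccl24. The rank product called 4 without the filter on dim probes, 1 with probes well above background on all 8 arrays, and 1 or 2 with an array left out (limma 3 to 5). Other ligands called higher were 2 without the filter. Those called lower were 1 with probes well above background on all 8 arrays, where Cxcl5 was not tested, and 1 to 3 with an array left out. Receptors called higher were 1 with the replicate block and 1 or 2 with an array left out, and partners called lower were 0 or 1. Signal over background limits Ccl24, Cxcr4, Ccl4 and Cxcl16 A_51_P374203, and leaves Ccl3 unmeasured.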
